A study of Mus musculus with 15 samples.

Results

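The mitochondrial ribosomal proteins are 78 of the 40174 gene symbols measured. They were taken by symbol, as every Mrpl or Mrps gene with a number and at most 1 closing letter, and pseudogenes were left out. All 78 passed the filter on low counts, and none was at 0 counts in any library. By the known composition of the mouse and human particle, 51 belong to the large subunit and 26 to the small subunit. The exception is Mrps36, which kept its ribosomal symbol but encodes a protein of the 2-oxoglutarate dehydrogenase complex. Symbols and sites of action do not always match: Mrps30 and Mrps18a encode large subunit proteins.

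RNA was measured by total RNA sequencing of left ventricle from C57BL/6 mice aged 2 months, in a study of how Rbm20 mutations act in cardiac remodelling. Rbm20 encodes an RNA-binding protein of muscle that regulates splicing of titin and other heart transcripts. The G-line carries Rbm20 S639G and the A-line Rbm20 S637A. The labels name WT and, for each line, HET (+/-) and HOM (written -/- in the labels, although the alleles are amino acid substitutions), with 3 libraries in each of 5 groups. No other allele or treatment is named. Whether each library stands for its own animal is not stated, so p-values here rest on the spread among libraries, part of which may be technical.

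Of the 15 libraries 13 were distinct. A-line HOM replicates 2 and 3 equalled WT replicates 2 and 3 in all 40174 symbols, and each was used once, as WT, which left a single library of A-line HOM. Which name is right cannot be read from the labels, and each comparison with WT rests on this choice. Totals ran from 12959087 to 29436407 counts per library. Myl7, an atrial muscle gene, reached 524 CPM (read counts scaled by library size) in WT replicate 2. For A-line HET replicate 3 it was 240.1 CPM, for G-line HOM replicate 1 it was 45.8 CPM, and no other library passed 3.43 CPM. Arntl, a clock gene, was raised in that G-line HOM library (24.6 CPM) and in the second A-line HET library (29.04 CPM), with at most 5.28 CPM elsewhere.

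Mitochondria carry their own ribosome, which translates the few messages encoded in mitochondrial DNA. Those messages specify core subunits of the respiratory chain and of ATP synthase, so heart muscle depends heavily on this particle. Its ribosomal RNAs come from mitochondrial DNA, while its proteins are encoded in the nucleus, made in the cytosol and imported. Some of the proteins descend from bacterial ribosomal proteins and others were added later, in the mitochondrial lineage. Recessive mutations in several of the human genes, among them MRPL3, MRPL44 and MRPS22, are known causes of mitochondrial disease with cardiomyopathy.

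The promoters of these genes are shown for 3 members to let a reader see what the letters of the searched motifs look like in place: Mrpl51 and Mrpl55, which fell in G-line HOM, and Mrpl33, the member that rose. The sequences are RefSeq windows of build GRCm38.p6, and the 120 bases before the annotated start are printed 5′ to 3′ on the gene's strand. Capitals mark the ETS core CCGGAAG. Mrpl51 lies at chr6:125192080-125192199, Mrpl55 at chr11:59202366-59202485 and Mrpl33 at chr5:31613831-31613950, all on the plus strand.
Mrpl51: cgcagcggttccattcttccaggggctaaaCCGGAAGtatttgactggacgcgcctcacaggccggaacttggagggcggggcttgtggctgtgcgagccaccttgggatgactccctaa
Mrpl55: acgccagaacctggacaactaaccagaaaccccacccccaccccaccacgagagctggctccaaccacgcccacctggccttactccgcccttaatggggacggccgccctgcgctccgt
Mrpl33: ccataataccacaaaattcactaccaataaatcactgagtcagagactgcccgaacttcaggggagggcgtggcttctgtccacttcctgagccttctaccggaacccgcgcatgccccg

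Of these 3 stretches only that of Mrpl51 held a searched motif, starting 90 bases before the start. Mrpl33 had an ETS core elsewhere in its window, and Mrpl55 had none of the motifs. The motifs, read on both strands of windows of 300 bases (250 before and 50 after the start), were the ETS core, the NRF1 core GCGCATGCG and the YY1 core AAGATGGCG. The ETS core ends in the letters AAG with which the YY1 core begins, so matches of these motifs can overlap. Windows were found for 69 of the 78 members, 75 windows in all. The ETS core stood in 34.7% of the members' windows, in 8.86% of all 32851 mouse windows and in 11.6% of the 21263 windows of protein-coding genes. The NRF1 core stood in 9.33% of the members' windows against 2.35% of protein-coding windows, and the YY1 core in 10.7% against 1.83%. Member windows had a median GC content of 58.7%, protein-coding windows 56.3%. At least 1 of the motifs stood in 42.4% of the 33 windows of members that fell in G-line HOM and in 51.2% of the 41 windows of members not called there. A match describes letters and is no evidence of binding.

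The first question is how the members together stood in each genotype. Their summed level was 2694, 2489 and 2809 CPM in WT replicates 1, 2 and 3. In G-line HOM it was 1867, 2146 and 2363 CPM, and the highest of these lay below the lowest WT library. In G-line HET it was 2832, 2795 and 2877 CPM, in A-line HET 2749.9, 2588 and 2176 CPM, and in the A-line HOM library 2409 CPM. G-line HOM stood at 79.8% of the WT mean, G-line HET at 106%, A-line HET at 94.0% and the A-line HOM library at 90.4%. In WT, G-line HOM and A-line HET alike, the lowest library is the one that held Myl7. Large subunit members summed to 1918 ± 117 CPM (SD, n = 3) in WT and 1504 ± 179.8 CPM in G-line HOM, small subunit members to 717 ± 42.7 and 600.3 ± 65.6 CPM.

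**Figure D1:**
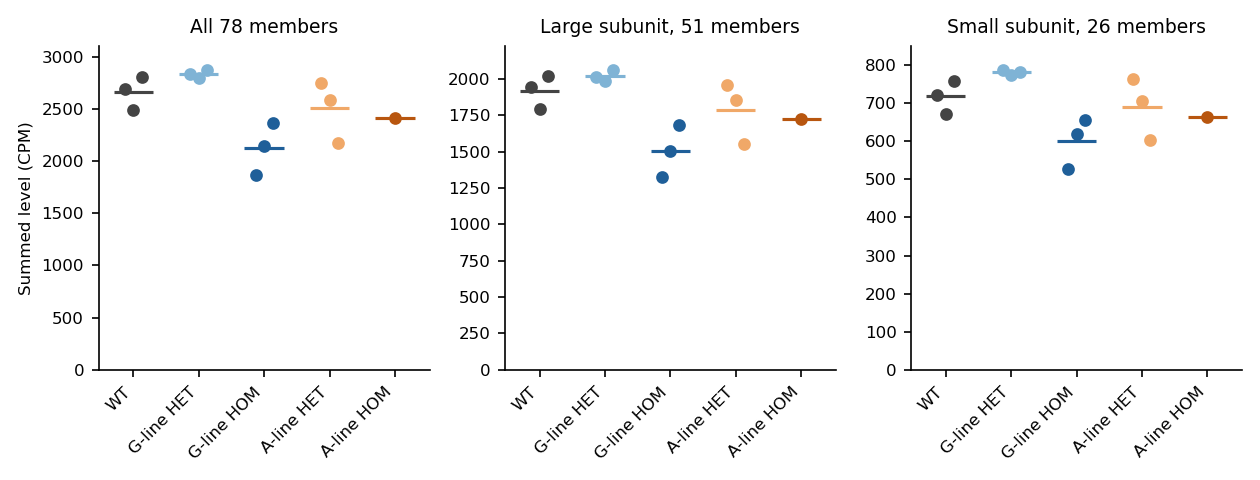
Summed level of the members in CPM (y axes, from 0) in each library by group (x axes), for all members, the large subunit and the small subunit. Points are libraries and lines are group means. The G-line HOM libraries, at 1867, 2146 and 2363 CPM for all 78 members, lie below every WT library.

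In G-line HOM against WT, 34 of 78 members fell and 1 rose by edgeR's quasi-likelihood test at an adjusted p under 0.05. That is 43.6% lower and 1.28% higher, where 13.3% of all 17588 genes tested were lower and 13.1% higher (26.4% in either direction). The members' median log2 fold change was -0.32, with quartiles of -0.46 and -0.14, against a median of 0.01 over all genes. Estimates were negative for 68 members. In 40 members (51.3%) every G-line HOM library lay below every WT library, a pattern that 21.1% of all genes showed. In bulk tissue, fewer cells of a type and less RNA per cell cannot be told apart.

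The count of calls changed with the libraries used, and leaving libraries out also leaves fewer samples to test with. Shares of all genes called in the same refits are not given here. Without the 3 libraries that held Myl7, 23 members were called. Without G-line HOM replicate 1, which held both Myl7 and raised Arntl, 18 members were called and the median was -0.22. Without WT replicate 3 there were 20, and without WT replicate 1 there were 22. With the shared libraries as A-line HOM, which leaves 1 WT library, 4 were called, and with them left out 8, at medians of -0.33 in both. All 35 called members kept their sign in each of 16 alternative analyses. The 4 that passed the test in every one were Mrpl14, Mrpl33, Mrpl39 and Mrpl55.

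**Figure D2:**
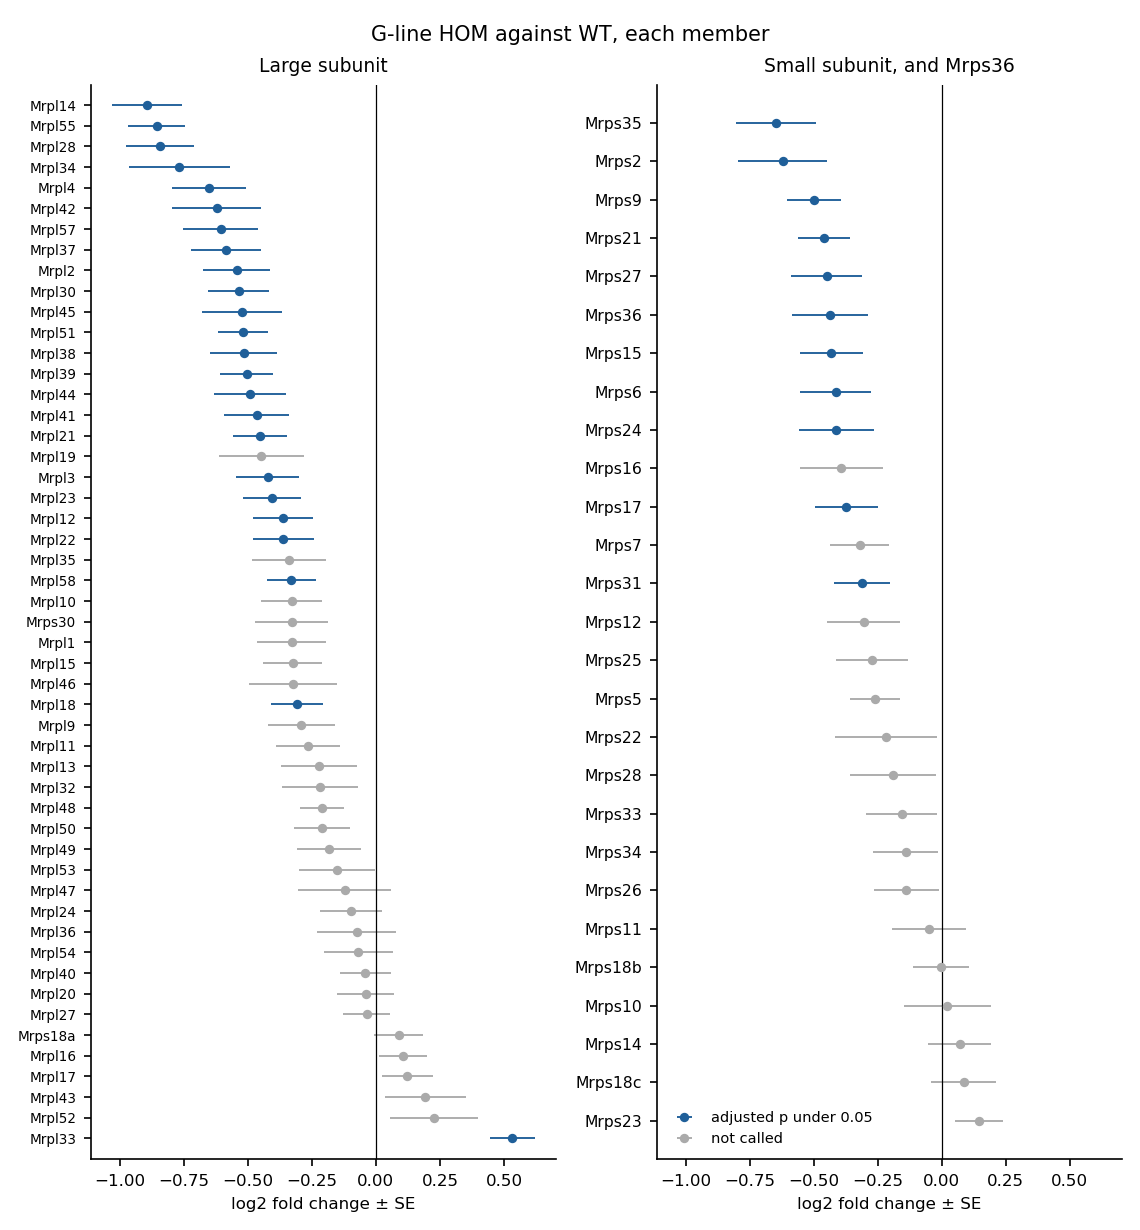
log2 fold change of each member in G-line HOM against WT (x axis) with its standard error, sorted within the large subunit (left) and the small subunit with Mrps36 (right). Blue points have an adjusted p under 0.05 and grey points do not. Of the 35 blue points 34 lie below 0, and Mrpl33 lies above it at 0.53.

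Among large subunit members 23 of 51 fell (45.1%) and Mrpl33 rose (median log2 fold change -0.33). Among small subunit members 10 of 26 fell (38.5%) and none rose (median -0.29). Members with a bacterial counterpart gave 20 lower (43.5%) and 1 higher of 46, and those without one gave 13 lower of 31 (41.9%). Of all genes tested, 13.3% fell and 13.1% rose. The counts thus spread over both subunits and both origins. Differences between these classes were not tested.

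Mrpl55, whose protein corresponds to bacterial L31, had the smallest adjusted p. Its level was 33.8, 37.0 and 41.4 CPM in WT and 19.1, 22.9 and 20.1 CPM in G-line HOM. The groups did not overlap, and the log2 fold change was -0.86 ± 0.11 (SE; edgeR quasi-likelihood, adjusted p = 0.000104). Mrpl14, the counterpart of bacterial L14 at the face where the subunits join, was at 24.7, 27.0 and 27.6 CPM in WT and 14.2, 16.6 and 11.9 CPM in G-line HOM. It fell by 0.89 ± 0.14 on the log2 scale (adjusted p = 0.000317), again without overlap. Its annotated exons share 11.2% of their bases with Tmem63b on the opposite strand, and whether counting used strand is not given in the sources used here.

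Mrpl28, the counterpart of bacterial L28, was at 44.96, 48.8 and 55.8 CPM in WT and 25.4, 26.6 and 31.5 CPM in G-line HOM. It fell by 44.2% (log2 fold change -0.84 ± 0.13, adjusted p = 0.000339), and all 3 G-line HOM libraries were lower than all 3 WT libraries. Mrpl33, the counterpart of bacterial L33, went the other way. Its level was 43.6, 40.003 and 43.7 CPM in WT and 55.0, 63.8 and 65.4 CPM in G-line HOM, a rise of 44.7% (log2 fold change 0.53 ± 0.09, adjusted p = 0.000539). Every G-line HOM library exceeded every other library of the study for this gene, the next highest being an A-line HET library at 51.3 CPM.

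Mrpl51 and Mrpl39 encode large subunit proteins that bacteria lack. Mrpl51 was at 105, 98.1 and 113 CPM in WT and 68.1, 77.3 and 75.7 CPM in G-line HOM, a fall of 30.2% (adjusted p = 0.00143). Mrpl39 was at 47.7, 39.7 and 42.7 CPM in WT and 26.9, 30.2 and 34.6 CPM in G-line HOM, a fall of 29.5% (adjusted p = 0.0024). Neither pair of groups overlapped. Mrpl39 was also lower than every WT library in all libraries of the other mutant groups, at 36.5 to 39.2 CPM in G-line HET, 31.3 to 35.5 CPM in A-line HET and 32.8 CPM in the A-line HOM library.

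Mrps9 and Mrps21, counterparts of bacterial S9 and S21, led the small subunit by adjusted p. Mrps9 was at 48.3, 48.7 and 50.5 CPM in WT and 32.9, 37.4 and 34.2 CPM in G-line HOM, which is 29.2% lower (adjusted p = 0.0032). Mrps21 was at 57.2, 54.3 and 58.2 CPM in WT and 34.8, 43.6 and 45.2 CPM in G-line HOM, which is 27.3% lower (adjusted p = 0.00384). In both, WT libraries lay close together and well above G-line HOM. The A-line HET libraries of Mrps9 spread from 35.05 to 49.6 CPM, the lowest being replicate 3, which held Myl7.

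**Figure D3:**
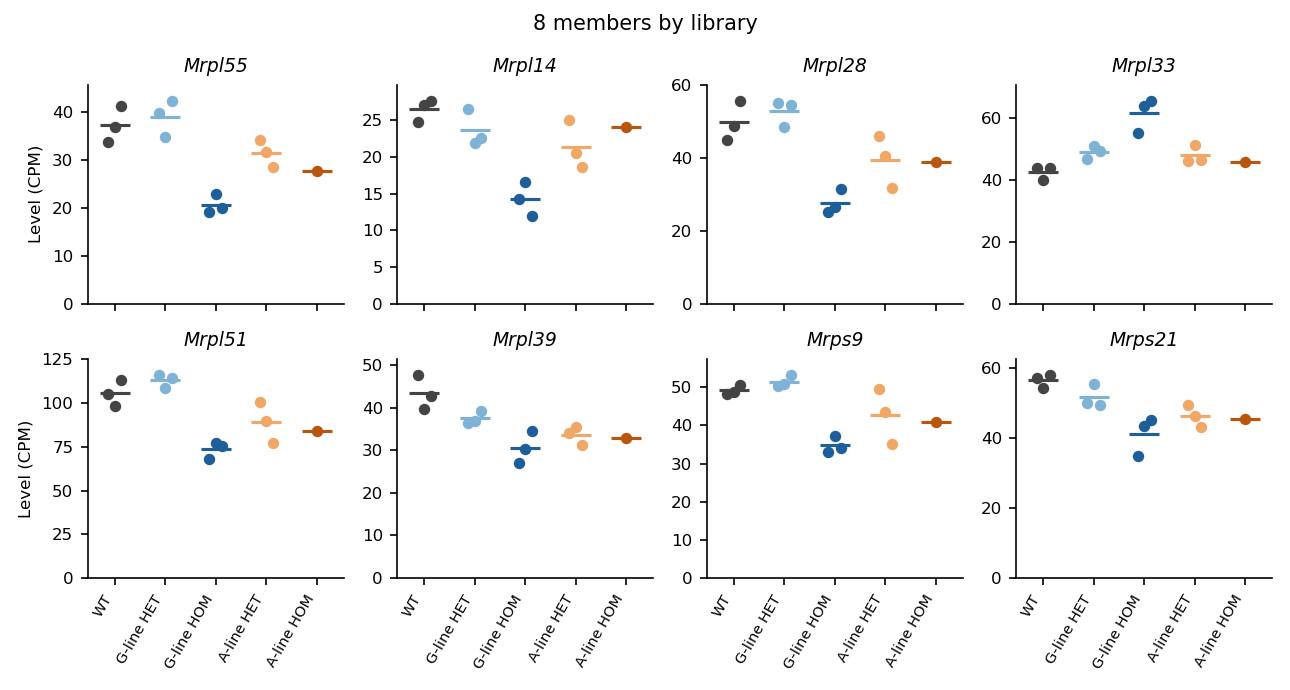
Level in CPM (y axes, from 0) of the 8 members with the smallest adjusted p in G-line HOM against WT, in each of 13 libraries by group (x axes). Points are libraries and lines are group means. G-line HOM lies below WT without overlap in all panels except Mrpl33, where it lies above, at 55.0 to 65.4 CPM.

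Other large falls were those of Mrpl34 (log2 fold change -0.77 ± 0.20), Mrpl4 (-0.65 ± 0.14), Mrps35 (-0.65 ± 0.16), Mrpl42 (-0.62 ± 0.17) and Mrps2 (-0.62 ± 0.17). Mrpl34 and Mrpl4 encode large subunit proteins with bacterial counterparts, and Mrps2 the mitochondrial S2. Mrps35 and Mrpl42 encode proteins without a bacterial counterpart. Their adjusted p-values ran from 0.00402 for Mrpl4 to 0.0185 for Mrpl42, and none overlapped WT. The largest estimates that did not pass the test were those of Mrpl19 (-0.45 ± 0.17, adjusted p = 0.0631), Mrps16 (-0.39 ± 0.16, 0.0906) and Mrpl35 (-0.34 ± 0.14, 0.1).

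Genes known from disease, and other well-studied members, differed among themselves. Mrpl12, whose protein also binds the mitochondrial RNA polymerase, went from 53.9 ± 3.59 CPM (SD, n = 3) in WT to 42.0 ± 1.44 CPM in G-line HOM (log2 fold change -0.36 ± 0.12, adjusted p = 0.0323). Mrpl3 fell by 25.4% (adjusted p = 0.0185), with libraries that overlapped WT, and Mrpl44 fell by 28.9% (adjusted p = 0.0172). Mrps22 did not pass the test, at 13.3 ± 1.06 CPM in WT and 11.5 ± 3.36 CPM in G-line HOM (adjusted p = 0.463). Mrps14 stood at 32.4 ± 3.09 and 34.1 ± 4.92 CPM (adjusted p = 0.726). Mrps12, encoding a protein of the decoding centre, stood at 9.65 ± 1.49 and 7.80 ± 0.439 CPM (adjusted p = 0.132).

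The S18 paralogs, 3 genes whose proteins occupy different places in the particle, gave no call in this comparison. Mrps18a was at 34.6 ± 1.10 CPM (SD, n = 3) in WT and 36.8 ± 4.16 CPM in G-line HOM, Mrps18b at 19.1 ± 1.95 and 19.04 ± 1.47 CPM, and Mrps18c at 16.7 ± 1.75 and 17.7 ± 2.75 CPM. Their adjusted p-values were 0.538, 0.992 and 0.667. Mrps36, the dehydrogenase complex gene, fell by 26.1% from 28.3 ± 2.81 CPM (log2 fold change -0.44 ± 0.15, adjusted p = 0.0404), with overlapping libraries.

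Levels between members were compared per kilobase of annotated exon (GENCODE M21), as CPM per kb. In WT they ran from 1.32 CPM per kb for Mrps10 to 76.6 for Mrps21, with a median of 10.9. Mrpl18 (55.9), Mrps23 (50.5) and Mrpl42 (47.3) followed Mrps21. Exons of rare transcript forms lengthen some genes, so the scale is coarse. In exon bases, 33 of the 78 members overlap another gene in that annotation, most of all Mrpl53 (88.0%), Mrps34 (77.8%) and Mrps25 (69.8%), whose counts are therefore uncertain. Members that fell had a median WT level of 33.2 CPM and those not called 23.4 CPM, with median standard errors of 0.13 log2 in both.

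The next comparison asks how homozygous differed from heterozygous G-line tissue. Here 34 members were lower and 1 higher (44.9% called), against 8.42% and 6.22% of all genes (14.6% in either direction). The median was -0.39 against 0.04 over all genes. In 51 members every G-line HOM library lay below every G-line HET library, as in 17.1% of all genes. Of the 35 calls 13 held in every alternative and all kept their sign; without G-line HOM replicate 1 or 2 the count was 18 and 21, and without G-line HET replicate 1, 2 or 3 it was 20, 22 and 22. This comparison does not use WT, so the doubt over the shared libraries touches it only through the shared estimate of spread and the scaling. Calls near the threshold still depended on it. With the shared libraries as A-line HOM, calls were lost for Mrpl19, Mrpl30, Mrpl33, Mrpl41, Mrpl42, Mrpl44, Mrpl53, Mrps17, Mrps21 and Mrps31. With them left out, calls were lost for Mrpl19, Mrpl41, Mrpl44, Mrps21 and Mrps31.

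The largest falls against G-line HET were those of Mrpl28 (log2 fold change -0.93 ± 0.13, adjusted p = 0.00156), Mrpl55 (-0.92 ± 0.11, 0.00106), Mrpl34 (-0.87 ± 0.20, 0.0113), Mrpl2 (-0.82 ± 0.13, 0.00232) and Mrpl4 (-0.82 ± 0.14, 0.00347). Mrpl2 encodes the counterpart of bacterial L2, which lies near its catalytic centre. It was at 41.9, 35.0 and 39.4 CPM in G-line HET and 22.7, 20.3 and 22.9 CPM in G-line HOM, with no overlap. Mrpl33 was higher by 25.5% (adjusted p = 0.0244). That call was lost in 8 of 16 alternatives, among them those without G-line HOM replicate 2 or 3 or any single G-line HET library, at adjusted p-values up to 0.0894. Mrpl46 (adjusted p = 0.0633), Mrps2 (0.0658) and Mrps16 (0.0752) had the largest estimates that missed the threshold, from -0.50 to -0.45.

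In G-line HET against WT 3 members rose and none fell (3.85%), where 3.97% of all genes rose and 7.52% changed in either direction. The median was 0.10 against -0.01 over all genes, and 60 of 78 estimates were positive. Mrpl12 was at 76.9, 65.6 and 71.7 CPM in G-line HET and 50.2, 54.3 and 57.4 CPM in WT (log2 fold change 0.40 ± 0.12, adjusted p = 0.0479). Mrps23, a small subunit gene, was at 108, 100.1 and 99.4 CPM against 79.4, 72.7 and 84.4 CPM (0.38 ± 0.09, adjusted p = 0.0237). Mrps18a was at 46.6, 41.9 and 42.6 CPM against 35.7, 33.5 and 34.7 CPM (0.34 ± 0.10, adjusted p = 0.0445). All 3 were above WT in every library.

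These 3 calls were close to the threshold: 0 were left with any of WT replicates 1 and 2 or G-line HET replicates 1 and 3 left out, 1 without WT replicate 3 or G-line HET replicate 2, and 0 with the shared libraries treated in another way. Mrps34, Mrps11 and Mrpl53 had similar estimates (0.40, 0.40 and 0.38) with adjusted p-values of 0.0667, 0.109 and 0.129. Mrpl12 passed the test in opposite directions in the 2 G-line groups against the same WT libraries. The G-line HOM call was kept in 7 of 16 alternatives (adjusted p up to 0.359) and the G-line HET call in 4 of 16 (up to 0.237). Its direct comparison, G-line HOM against G-line HET, gave a log2 fold change of -0.77 ± 0.12 (adjusted p = 0.00189), and this call held in every alternative.

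**Figure D4:**
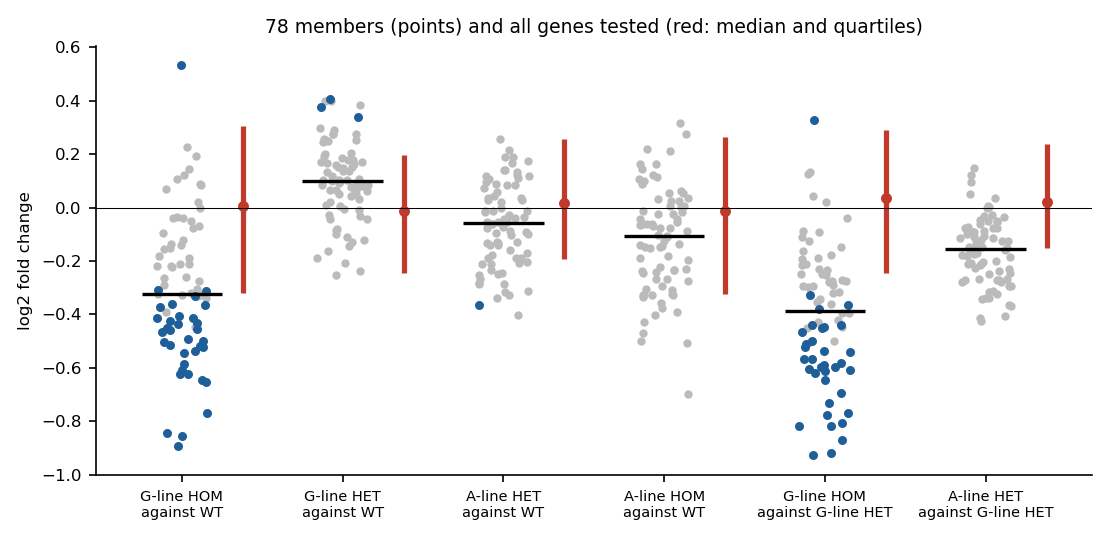
log2 fold change (y axis) of the 78 members in each of 6 comparisons (x axis). Blue points have an adjusted p under 0.05, grey points do not, black lines are the members' medians, and red marks give the median and quartiles of all genes tested. The members' medians are -0.32 and -0.39 in the G-line HOM comparisons and 0.10 in G-line HET against WT.

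In A-line HET against WT 1 member fell (1.28%), where 3.97% of all genes fell and 7.96% changed in either direction. It was Mrpl39, at 34.1, 35.5 and 31.3 CPM against 47.7, 39.7 and 42.7 CPM in WT (log2 fold change -0.36 ± 0.10, adjusted p = 0.045). Adjusted p-values of this gene reached 0.343 over the alternatives, and the call was lost in 11 of 16. The members' median was -0.06 against 0.02 over all genes. Mrpl57 (-0.40), Mrpl28 (-0.34) and Mrps2 (-0.33) had the largest other estimates, with adjusted p-values of 0.119, 0.139 and 0.293. Without A-line HET replicate 3, which held Myl7, the median was 0.04, and without A-line HET replicate 1 it was -0.13 with 3 members lower. The shares of 3.97% and 7.96% belong to the fit of all libraries, not to these refits.

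In A-line HOM against WT no member passed edgeR's quasi-likelihood test, where 4.68% of all genes did. DESeq2 also called 0, and 5 members had an unadjusted edgeR p under 0.05. This group holds 1 library, which the fit takes to be as variable as those of the other groups. The median was -0.11 against -0.01 over all genes. The largest estimates were those of Mrps2 (13.1 CPM against 21.3 ± 1.06 CPM in WT; log2 fold change -0.70 ± 0.26, adjusted p = 0.149), Mrps22 (-0.50 ± 0.30, 0.393) and Mrps6 (-0.50 ± 0.21, 0.206).

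The 2 alleles were compared in the heterozygous state, A-line HET against G-line HET. No member passed edgeR's quasi-likelihood test, nor did DESeq2 call any; 14 had an unadjusted edgeR p under 0.05, and 0.0284% of all genes were called. The median was -0.16 against 0.02 over all genes, and 71 of 78 estimates were negative. Mrpl28 (-0.42 ± 0.13, adjusted p = 0.207), Mrps34 (-0.41 ± 0.13, 0.207) and Mrpl57 (-0.41 ± 0.15, 0.271) had the largest estimates. Without A-line HET replicate 1, 6 members were called, all lower. The 0.0284% belongs to the fit of all libraries, and the share of all genes called in this refit is not given here. Depth differed: A-line HET libraries held 12959087, 16375447 and 17448328 counts, and no G-line HET library held fewer than 23714906.

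Genes that work with the mitochondrial ribosome were taken from lists of known function, and their counts stand beside the 13.3% of all genes that fell and the 13.1% that rose in G-line HOM against WT. Of the 5 ribosomal proteins that carry other symbols 3 fell (60%): Ptcd3 (log2 fold change -0.79), Dap3 (-0.46) and Gadd45gip1 (-0.50). Of 12 translation factors 7 fell (58.3%), among them the elongation factor Gfm1 (-0.67), the recycling factor Mrrf (-0.75) and Gfm2 (-0.70), which acts with Mrrf in recycling. Of 20 mitochondrial aminoacyl-tRNA synthetases 12 fell (60%), and those with the smallest adjusted p were Fars2 (-0.49), Mars2 (-0.52) and Vars2 (-0.67). None of these 3 lists had a member that rose, and their medians were -0.46, -0.48 and -0.38.

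Lars2, a synthetase gene named after its values were seen, is one of the 12 and has the largest estimate among them (log2 fold change -4.60 ± 1.37, adjusted p = 0.0396), which rests on WT libraries that disagree. It stood at 2227, 483 and 45.03 CPM in WT and 34.8 to 40.996 CPM in G-line HOM. The transcript AY036118 was high and low in the same WT libraries, at 1416, 100.8 and 14.97 CPM. A-line HET replicate 2 was also high in both, at 324 and 116 CPM.

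Of 24 genes of ribosome assembly and rRNA modification 7 fell (29.2%) and 1 rose, Mterf3 (median -0.32). By adjusted p the first were the GTPases Gtpbp10 (-0.56) and Mtg2 (-0.53) and the endoribonuclease Ybey (-0.74). Of 17 genes of mitochondrial RNA handling 8 fell (47.1%), and the first by adjusted p were Hsd17b10 (-0.91), a subunit of the mitochondrial RNase P, Fastk (-0.96) and the helicase Supv3l1 (-0.62). Of 12 genes of mitochondrial DNA and transcription 4 fell (33.3%), among them the RNA polymerase gene Polrmt (-0.71), Mterf2 (-0.74) and Mgme1 (-0.50). Of 12 nuclear regulators of mitochondrial genes 1 fell, the receptor Esrrg (-0.47), and 1 rose, Myc (1.43). That is 8.33% in each direction, and a count of 1 is too small to set the list apart from the shares over all genes.

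The 2 RNAs of the mitochondrial ribosome were lower as well. The large rRNA mt-Rnr2 was at 208478 ± 26806 CPM (SD, n = 3) in WT and 104087 ± 13588 CPM in G-line HOM (50.1% lower, adjusted p = 0.000282). The small rRNA mt-Rnr1 was at 18418 ± 3442 and 9600 ± 835 CPM (47.9% lower, adjusted p = 0.000328). Their share of all counts was highest in WT (20.2 to 23.4%). In G-line HOM it was 10.8 to 13.5%, a range that also held A-line HET replicate 3, at 13.2%. Summed rRNA in G-line HET stood at 73.9% of the WT mean, where the protein genes stood at 106%, although neither rRNA passed the test in that comparison (mt-Rnr2 adjusted p = 0.0817, mt-Rnr1 0.394). In A-line HET summed rRNA stood at 65.7% of the WT mean and in the A-line HOM library at 66.6%. In A-line HET against WT 1 of the 2 rRNAs was called lower, where 3.97% of all genes fell. For both rRNAs every A-line HET library lay below every WT library. Neither was called in A-line HOM against WT. The kit removes ribosomal RNA, and what part its removal has in these shares was not tested.

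The respiratory chain and the cytosolic ribosome give a frame for these numbers. Of 38 nuclear genes of complex I 22 fell (57.9%) and none rose in G-line HOM against WT (median -0.39), where 13.3% of all genes fell, and its summed level was 76.0% of WT beside 79.8% for the ribosomal proteins. Of 80 cytosolic ribosomal protein genes tested 15 rose (18.8%, against 13.1% of all genes) and 3 fell (3.75%, against 13.3%), with a median of 0.15 and a summed level of 111% of WT. Counts over lists share the same libraries and are descriptions.

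**Figure D5:**
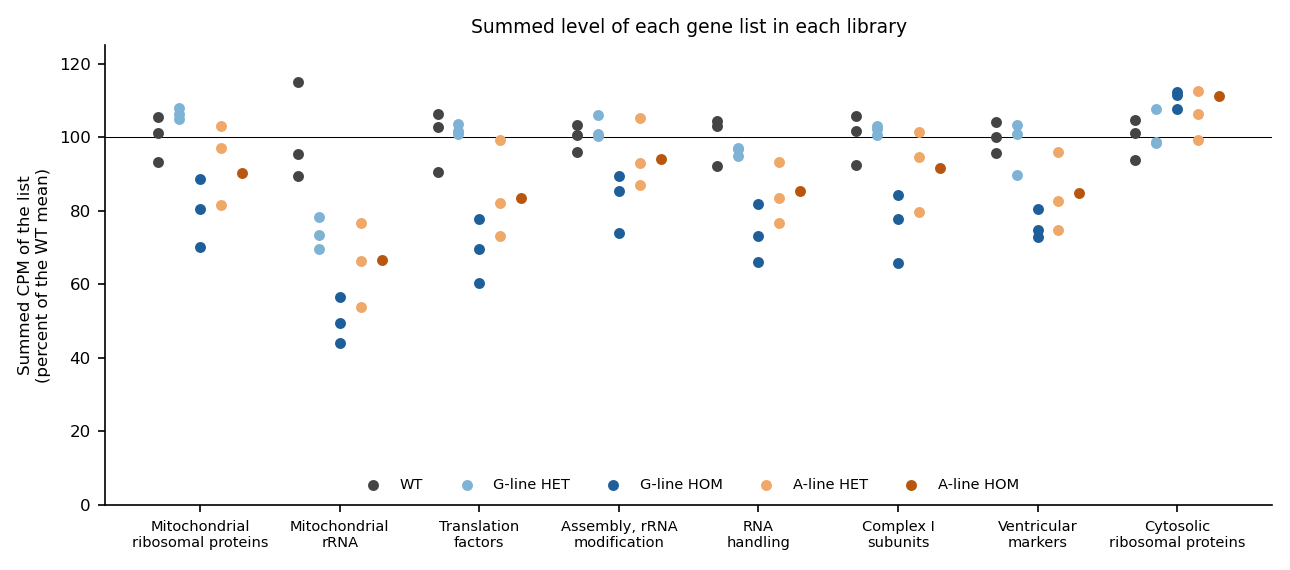
Summed CPM of 8 gene lists in each library (y axis, percent of the WT mean, from 0), with groups side by side in colour. In G-line HOM the mitochondrial ribosomal proteins stand at 79.8% of the WT mean, complex I at 76.0%, mitochondrial rRNA at 50.1% and cytosolic ribosomal proteins at 111%.

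Some lists of cell type markers differed between G-line HOM and WT, a comparison in which 13.3% of all genes fell and 13.1% rose. Of 4 endothelial and 4 macrophage markers 0 were called, with sums at 87.5% and 92.9% of the WT mean. Of 3 adipocyte and 3 mesothelial markers tested 0 were called. Summed ventricular cardiomyocyte markers were at 42838 to 46660 CPM in WT and 32641 to 36025 CPM in G-line HOM, or 76.1% of the WT mean. Of the 6 genes 3 fell (50%): Tnni3, Myl3 and Myh6. Estimates were negative for 5 of the 6 and positive for 1, at a log2 fold change of 0.32. Summed fibroblast markers were at 936 to 1624 CPM in WT and 2058 to 2929.5 CPM in G-line HOM, and 4 of 7 rose (57.1%). No marker of either list was at 0 counts in any library. Within G-line HOM, the library lowest in ventricular markers (replicate 3, 32641 CPM) was the highest in ribosomal proteins. In A-line HET replicate 3 was lowest and replicate 1 highest in both, with ventricular markers at 33472 and 42993 CPM. In WT replicate 2 was lowest and replicate 3 highest in both. G-line HET replicate 2 was lowest in both, while replicate 1 was highest in ventricular markers and replicate 3 in ribosomal proteins.

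Summed atrial markers were at 77.6 to 2395 CPM in WT and 4694 to 8003 CPM in G-line HOM, or 759% of the WT mean. Of the 4 genes 1 rose (25%, where 13.1% of all genes rose), Nppa, a natriuretic peptide gene that diseased ventricle also expresses. Estimates of the other 3 were negative (median log2 fold change of the list -2.84) and did not pass the test, so the list did not rise as a whole. In WT replicate 1, 2 of the 4 were at 0 counts. Erythroid markers were at 269.6 to 359.8 CPM in WT and 235 to 1025 CPM in G-line HOM, and adjusted p-values of the 4 genes ran from 0.0720 (Hbb-bt) to 0.145 (Hba-a1) in edgeR's quasi-likelihood test. Smooth muscle and pericyte markers were at 798 to 938 CPM in WT and 479 to 797 CPM in G-line HOM, 74.2% of the WT mean. Of the 4 tested 1 fell, Rgs5 (25%, where 13.3% of all genes fell). The part of cell composition in the members' values was not tested.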

How the data were processed

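Raw counts by gene symbol, as deposited, were used; the files give no gene positions. Per the submitters' processing notes, bcl2fastq 2.20.0.422, Trimmomatic 0.39, STAR 2.7.4a and GRCm39 (mm39) were used; the sources used here give no counting program, annotation or strand setting. Genes reaching 0.422 CPM in at least 3 libraries and 15 counts in all were kept (17588). TMM-scaled counts of 13 libraries were fitted in 1 model with edgeR 4.0.16 (R 4.3.3), robust quasi-likelihood, 8 residual degrees of freedom, and p-values were Benjamini-Hochberg adjusted over all genes, threshold 0.05. CPM use the TMM factors. The procedure was tested on simulated data. The members, gene lists and left-out libraries were chosen with earlier results of these data known. Named were the called members with the largest fold changes (8 per direction in G-line HOM against WT, 5 elsewhere), 3 not called, fixed textbook members, and, by library, the 8 with the smallest adjusted p. Exons (GENCODE M21) and promoters (RefSeq) are of GRCm38. Alternatives included DESeq2 1.42.0.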

Additional observations from a re-analysis of the deposited data

How the results depend on the processing

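Counts of called members in G-line HOM against WT (35) were 4 with the shared libraries as A-line HOM, 8 with them left out, 23 without the 3 Myl7-holding libraries, 17 without the 2 libraries of raised Arntl, and 18 to 45 without single libraries. In G-line HOM against G-line HET (35) they were 17 without the raised-Arntl libraries and 18 to 47 without single libraries. In G-line HET against WT (3) they were 8 with only the compared groups fitted, 0 under both treatments of the shared libraries, and 0 to 1 without single libraries. In A-line HET against WT (1) they were 0 with RLE size factors, with only the compared groups, under both treatments of the shared libraries and without the Myl7-holding libraries, and 0 to 3 without single libraries. A-line HOM against WT (0) gave 1 with only the compared groups, and A-line HET against G-line HET (0) gave 0 to 6 without single libraries. With the replicate number as a block (replicate block) the counts were 27 in G-line HOM against WT, 29 against G-line HET, 0 in G-line HET against WT and 0 in A-line HET against WT. Whether the numbers pair the samples is not stated. In deviations from group means, 3 of 18 same-numbered pairs correlated above 0.1, with correlations between -0.37 and 0.35. With at most 3 libraries per group this cannot exclude a pairing. Signs turned for uncalled members near 0 in G-line HOM against WT. Mrps18b was 0.0054 with only the compared groups, 0.047 without the raised-Arntl libraries and -0.085 to 0.052 without single libraries. Mrps14 was -0.0074 and -0.012 under the 2 treatments of the shared libraries and -0.021 to 0.18 without single libraries, and Mrps18c was -0.041 to 0.18 without single libraries. Leaving out WT libraries or shared libraries leaves fewer samples, and other causes were not tested. Shares of all genes called under these settings are not given beside the counts. DESeq2 and no filter on low counts kept the counts of calls within 1.5 times in the 6 comparisons.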
